A study of Homo sapiens with 6 samples.

Results

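The genes described are CLGN and 8 other genes of the calnexin cycle, measured in the established liver cancer cell line Hep-G2. They were chosen by name and for what their proteins do, with earlier results of these data known. All 9 were found among the 58735 genes of the expression table. The comparison was between 3 libraries with a negative control hairpin (sh-NC) and 3 libraries whose short hairpin RNA targets CLGN (sh-CLGN). Both groups received the hairpin by lentivirus. The labels call sh-NC wild type and sh-CLGN a CLGN knock down, and give all 6 libraries the same batch entry, 0DAY. Each group carried 1 hairpin, so effects of the hairpin or of the culture and effects of the loss of CLGN cannot be told apart. The labels do not say that replicates came from separate cultures, so p-values measure the spread between these libraries, which may be technical.

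The calnexin cycle is a folding checkpoint of the endoplasmic reticulum (ER). A sugar chain is attached to new glycoproteins with glucose residues at its tip. MOGS (glucosidase I) removes the outermost glucose, and glucosidase II, made of the catalytic subunit GANAB and the regulatory subunit PRKCSH, removes the rest. Chains with a single glucose left are held by the lectin chaperones CANX (calnexin, in the membrane), CALR (calreticulin, soluble) and CLGN (calmegin, a membrane protein related to calnexin and best known from the testis). PDIA3 (ERp57) joins them and forms disulfide bonds in the bound protein. UGGT1 and UGGT2 put a glucose back on proteins that are not yet folded, which returns them to the chaperones.

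The hairpin target is shown because all differences below are between cells with and without this hairpin. The 19 bases were read from the GENCODE 29 transcripts of CLGN, 5′ to 3′, and the capitals mark the stretch that would pair with positions 3 to 9 of a guide strand complementary to these bases.
CLGN target: cgacatatgtATACCACaa
The stretch lies at chr4:140392328-140392346 on the minus strand of GRCh38, within a coding exon, and was found in 2 of the 3 annotated CLGN transcripts. The capital heptamer was also present once in the 3′ UTR of CANX, at chr5:179729011-179729017 on the plus strand, and in no other member's 3′ UTR.
CANX 3′ UTR: caaacataATACCACcatttaaa
Of 10878 tested genes with an annotated 3′ UTR of at least 50 bases, 7.90% held this heptamer. The heptamer that pairs with guide positions 2 to 8, TACCACA, was held by 10.8% of these genes and by none of the 9 members. These matches are descriptions and were not tested as sites.

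Library depth was similar in both groups, with 14955816 to 16244639 reads per library recovered from the deposited values. The number of genes with a read was not similar and split by group. No sh-NC library held more than 23793 such genes (replicate 3), while every sh-CLGN library held at least 26814 (replicate 2). The cause of this difference and its part in the results below were not tested. Expression is given as FPKM, which scales reads by gene length and a library size. The library size in the deposited values was not the read total. It was 0.933 to 0.953 times that total in sh-NC and 1.07 to 1.08 times in sh-CLGN. Of the hepatocyte markers, 8 of 8 passed the expression filter, and their summed level was 6887 to 7128 FPKM in the sh-NC libraries and 7113 to 7577 FPKM in the sh-CLGN libraries. Single hepatocyte markers moved both ways within that sum. The mean of ALB was 2010 FPKM in sh-NC and 1080 FPKM after the knockdown. SERPINA1 went from 672 to 533 FPKM, APOB from 284 to 227 FPKM and HNF4A from 63.8 to 51.7 FPKM. In the other direction, AFP went from 2670 to 3780 FPKM, FGB from 280 to 463 FPKM, TTR from 182 to 274 FPKM and APOA1 from 812 to 900 FPKM. Of 6 fibroblast markers 5 passed, and their sum moved with the group, from 6.70 to 8.19 FPKM in sh-NC and from 47.4 to 49.0 FPKM in sh-CLGN. COL1A2 made up most of that sum (mean 4.2 FPKM in sh-NC, 38.7 FPKM in sh-CLGN). The means of COL1A1 (0.327 and 3.29 FPKM), LUM (0.304 and 1.75 FPKM), COL3A1 (0.265 and 1.67 FPKM) and PDGFRB (2.12 and 2.76 FPKM) were higher in sh-CLGN too, and DCN had a mean of 0.00178 FPKM in sh-NC and was at 0 in sh-CLGN. Leukocyte markers summed to 69.9 to 77.7 FPKM in the sh-NC libraries and 61.2 to 68.5 FPKM in the sh-CLGN libraries, nearly all from LYZ, with PTPRC at a mean of 0.0112 FPKM or less. Endothelial markers summed to at most 3.67 FPKM in any library, with KDR at 0. The part of these transcripts in the results below was not tested. Germ cell markers summed to at most 0.964 FPKM in any library, with DAZL and ZPBP at 0 in all 6.

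Of the 9 genes, 6 were lower in sh-CLGN, 1 was higher and 2 did not pass the test. The 6 were CLGN, CANX, CALR, PDIA3, UGGT1 and MOGS, the higher gene was GANAB, and UGGT2 and PRKCSH did not pass. The test was limma with a mean trend on log2(FPKM + 1), fitted over the 13074 genes that reached 1 FPKM in 3 or more libraries, with Benjamini-Hochberg adjustment and a threshold of 0.05. All 9 members were among the genes tested. In the same test 39.0% of all tested genes were lower and 26.7% higher, so a fall or a rise of one gene was common in these libraries. The libraries of the groups did not overlap for 6 lower members and 1 higher member, against 41.5% of all tested genes lower and 28.7% higher by that rule. The median log2 fold change of the 9 members was -0.40, and that of all tested genes was -0.08. Scaling by read totals gave 5 lower and 3 higher members, while among all tested genes it turned the split to 26.2% lower and 37.9% higher. Quantile normalization gave 4 lower and 2 higher members, beside 32.5% lower and 30.2% higher among all tested genes.

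**Figure D1:**
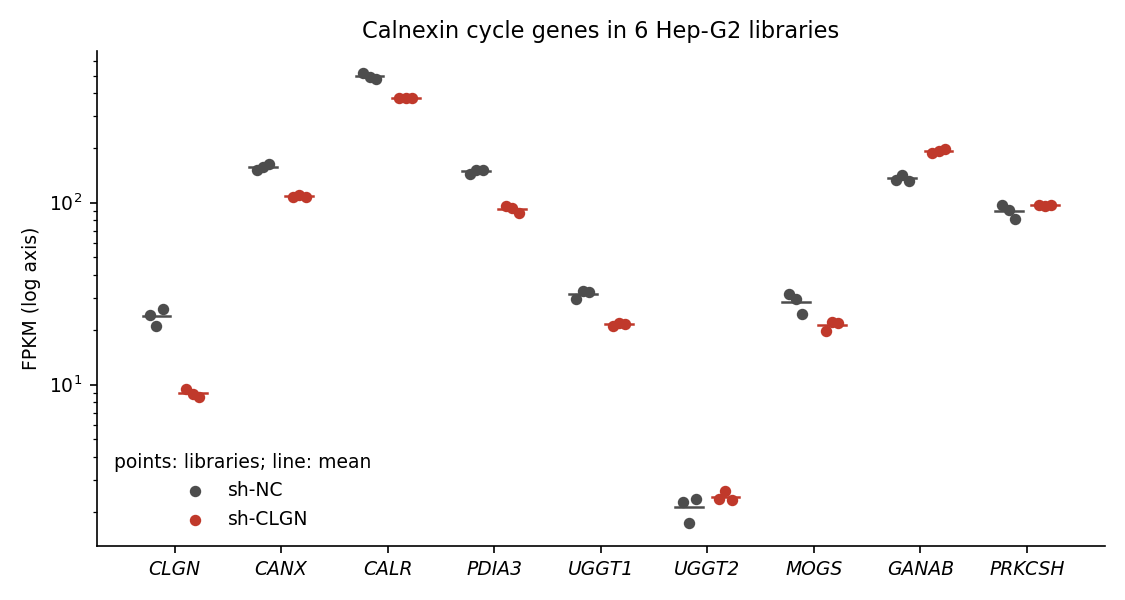
FPKM (log axis) of the 9 calnexin cycle genes in each of the 3 sh-NC and 3 sh-CLGN libraries, with points for libraries and lines for means. The sh-CLGN libraries lie below the sh-NC libraries for CLGN, CANX, CALR, PDIA3, UGGT1 and MOGS, and above them for GANAB, and the groups overlap for UGGT2 and PRKCSH.

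CLGN itself (ENSG00000153132; chr4:140388455-140427968, minus strand) had the largest change of the 9 in size. The sh-NC libraries held 24.1, 21.0 and 26.1 FPKM of CLGN and the sh-CLGN libraries 9.48, 8.88 and 8.60 FPKM. The groups were well apart, and 37.8% of the control mean was left. The log2 fold change was -1.31 (SE 0.081, limma adjusted p = 8.35e-06). Of all tested genes, 1.09% had a lower log2 fold change than CLGN. CLGN was the 1 member that fell by at least 1 on the log2 scale, which 3.19% of all tested genes did at an adjusted p of at most 0.05.

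CANX (ENSG00000127022; chr5:179678628-179730925, plus strand), the membrane-bound relative of CLGN, was expressed at 151, 157 and 164 FPKM in sh-NC and at 108, 111 and 108 FPKM in sh-CLGN. The sh-CLGN libraries were all lower, and 69.2% of the control mean was left. The log2 fold change of CANX was -0.53 (SE 0.048, limma adjusted p = 4.91e-05). A gene that overlaps CANX on the opposite strand, CBY3, and the overlapping pseudogene HMGB3P22 held at most 8 reads in any library, against 10864 to 15826 reads for CANX.

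CALR (ENSG00000179218; chr19:12938578-12944489, plus strand), the soluble chaperone, had the highest level of the 9 genes in both groups. It stood at 515, 493 and 475 FPKM in sh-NC and at 375, 377 and 375 FPKM in sh-CLGN, without overlap. The log2 fold change was -0.39 (SE 0.049, limma adjusted p = 0.000225), but after quantile normalization it was -0.005 (limma adjusted p = 0.916), and no difference could then be called. By mean level CALR lay at the 99.6th percentile of tested genes in both groups.

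PDIA3 (ENSG00000167004; chr15:43746392-43773279, plus strand), the oxidoreductase that works with CANX and CALR, changed most among the members after CLGN in the deposited FPKM. It was at 144, 151 and 152 FPKM in sh-NC and at 96.3, 93.8 and 87.8 FPKM in sh-CLGN, with 62.1% of the control mean left. The log2 fold change was -0.68 (SE 0.051, limma adjusted p = 1.97e-05). Of the 50-base windows of PDIA3 transcripts, 30.4% also occur in transcripts of other genes, as they are or as reverse complements. First were ELL3, whose annotated transcripts overlap PDIA3 on the opposite strand, and the pseudogene PDIA3P1. ELL3 held at most 4 reads in a library, and CATSPER2P1, a pseudogene that overlaps PDIA3 on the opposite strand, held 19 to 49 reads, at most 0.708% of those of PDIA3. PDIA3P1 held 276 to 404 reads, at most 4.66% of the reads of PDIA3, and its log2 fold change was -0.50 (SE 0.064, limma adjusted p = 0.000288). Reads of PDIA3 and PDIA3P1 may have been exchanged in counting.

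The 3 lectin chaperones together summed to 689, 672 and 666 FPKM in sh-NC and to 492, 497 and 492 FPKM in sh-CLGN. The ratio of the group means was 0.731, and 0.799 when values were rescaled to TPM. The sum was not computed under the other scalings. After quantile normalization the log2 fold change of CALR was -0.005 and that of CANX -0.21. CLGN made up 3.13% to 3.92% of this sum in sh-NC libraries and 1.75% to 1.93% in sh-CLGN libraries. Most of the summed difference lay in CALR and CANX, which had higher FPKM than CLGN. CALR made up 73.2% ± 1.63 of the sum in control libraries and 76.1% ± 0.194 after the knockdown (SD, n = 3). The ratio of CANX to CLGN was 6.67 ± 0.696 in sh-NC libraries and 12.1 ± 0.655 in sh-CLGN libraries (SD, n = 3), without overlap, whereas the ratio of CALR to CANX overlapped between the groups, at 3.15 ± 0.260 and 3.45 ± 0.0402 (SD, n = 3).

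The 2 glucosyltransferases that return unfolded glycoproteins to the chaperones were expressed at different levels. UGGT1 (ENSG00000136731; chr2:128091200-128195677, plus strand) was at 29.4, 32.7 and 32.4 FPKM in sh-NC and at 21.0, 21.7 and 21.5 FPKM in sh-CLGN. All sh-CLGN libraries were lower, and the log2 fold change was -0.53 (SE 0.055, limma adjusted p = 8.31e-05). UGGT2 (ENSG00000102595; chr13:95801580-96053482, minus strand), its paralog, was at 2.27, 1.73 and 2.34 FPKM in sh-NC and at 2.35, 2.60 and 2.32 FPKM in sh-CLGN. These values overlapped, and the log2 fold change was 0.14 (SE 0.097, limma adjusted p = 0.231). UGGT2 rested on 205 to 346 reads per library, and its direction was not stable. The log2 fold change was 0.28 (limma adjusted p = 0.0363) with scaling by read totals and -0.05 (limma adjusted p = 0.559) after the trend with GC content was removed. Within each library UGGT1 exceeded UGGT2 by 12.9, 18.9 and 13.8 times in sh-NC and by 8.93, 8.34 and 9.27 times in sh-CLGN.

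Of the glucosidases that act before the chaperones, MOGS was lower and GANAB higher. MOGS (ENSG00000115275; chr2:74461057-74465410, minus strand), which takes off the outermost glucose, was at 31.3, 29.6 and 24.5 FPKM in sh-NC and at 19.8, 22.1 and 21.7 FPKM in sh-CLGN. The groups did not overlap, and the log2 fold change was -0.40 (SE 0.092, limma adjusted p = 0.0054). The fall did not pass with scaling by read totals (limma adjusted p = 0.0576), after quantile normalization (0.167) or after the GC trend was removed (0.064).

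GANAB (ENSG00000089597; chr11:62624826-62646726, minus strand), the catalytic subunit of glucosidase II, was the member that rose. It was at 134, 143 and 132 FPKM in sh-NC and at 188, 193 and 198 FPKM in sh-CLGN. All sh-CLGN libraries were higher, at 141.8% of the control mean, and the log2 fold change was 0.50 (SE 0.049, limma adjusted p = 6.92e-05). GANAB passed in the same direction under all 19 alternatives tried, some of which refit the same values and could not change its direction.

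PRKCSH (ENSG00000130175; chr19:11435288-11450968, plus strand), the subunit that keeps glucosidase II in the ER, was at 97.7, 91.1 and 81.1 FPKM in sh-NC and at 96.5, 95.6 and 97.6 FPKM in sh-CLGN. The sh-NC replicates 2 and 3 lay below all sh-CLGN libraries and replicate 1 above them, and the log2 fold change was 0.11 (SE 0.068, limma adjusted p = 0.209). Without that library the log2 fold change was 0.17 (limma adjusted p = 0.0487), and it passed as higher as well with TPM scaling, with read totals, after quantile normalization and after the GC trend was removed.

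**Figure D2:**
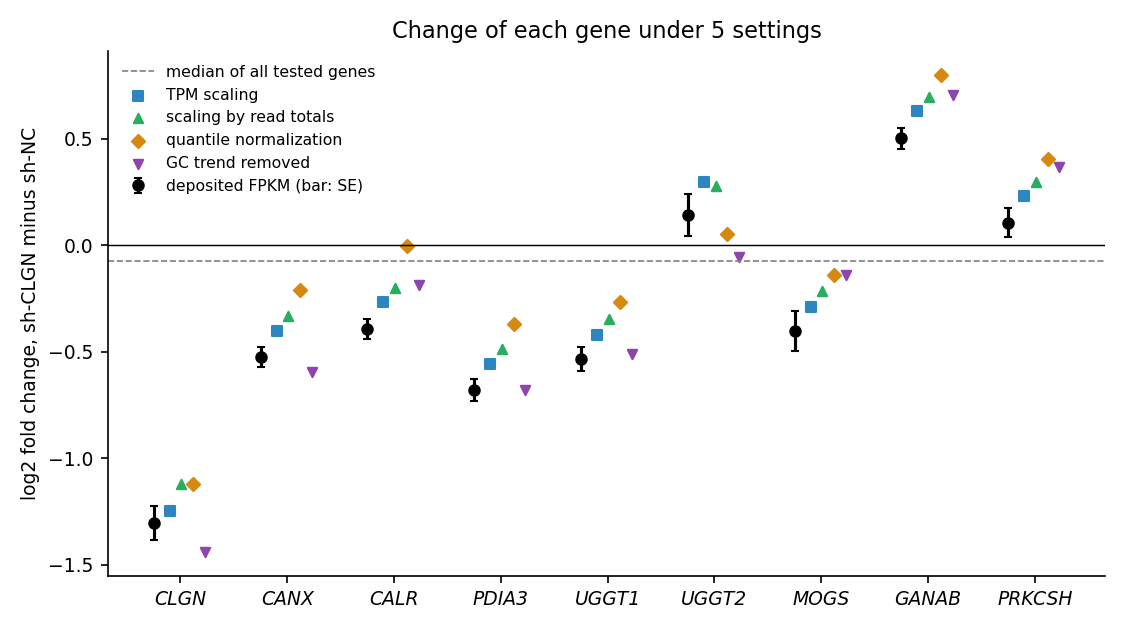
Log2 fold change (sh-CLGN minus sh-NC, on log2(value + 1)) of each gene from the deposited FPKM, with SE, and under 4 other scalings or corrections, with the median of all tested genes from the deposited FPKM as a dashed line. CLGN, CANX, PDIA3 and UGGT1 stay below 0 and GANAB and PRKCSH above 0 under all 5, CALR comes to -0.005 after quantile normalization, and UGGT2 turns to -0.05 after the GC trend is removed.

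Ratios of 2 genes within a library do not depend on its size, and 7 were computed, for the chaperones and for steps that act in sequence. GANAB over MOGS, the enzymes of the successive trimming steps, was 4.28, 4.81 and 5.39 in sh-NC, against 9.53, 8.72 and 9.12 in sh-CLGN. GANAB over UGGT1, the enzymes that take off and put back the same glucose, was 4.55, 4.37 and 4.07 in sh-NC, against 8.98, 8.87 and 9.20 in sh-CLGN. The 2 subunits of glucosidase II, GANAB over PRKCSH, stood at 1.37, 1.57 and 1.63 in sh-NC and at 1.95, 2.02 and 2.03 in sh-CLGN. These 3 ratios were higher in every sh-CLGN library, but all have GANAB, which rose, as numerator and are not independent. PDIA3 over the sum of CANX and CALR was lower in every sh-CLGN library, at 0.191 ± 0.00888 against 0.229 ± 0.0106 in sh-NC (SD, n = 3). For any one of these ratios the two-sided exact permutation test of 3 against 3 libraries cannot go below p = 0.1, so non-overlap is given as a description. The share of other gene pairs whose ratios separate the groups was not computed. Of single tested genes, 41.5% were lower and 28.7% higher without overlap.

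**Figure D3:**
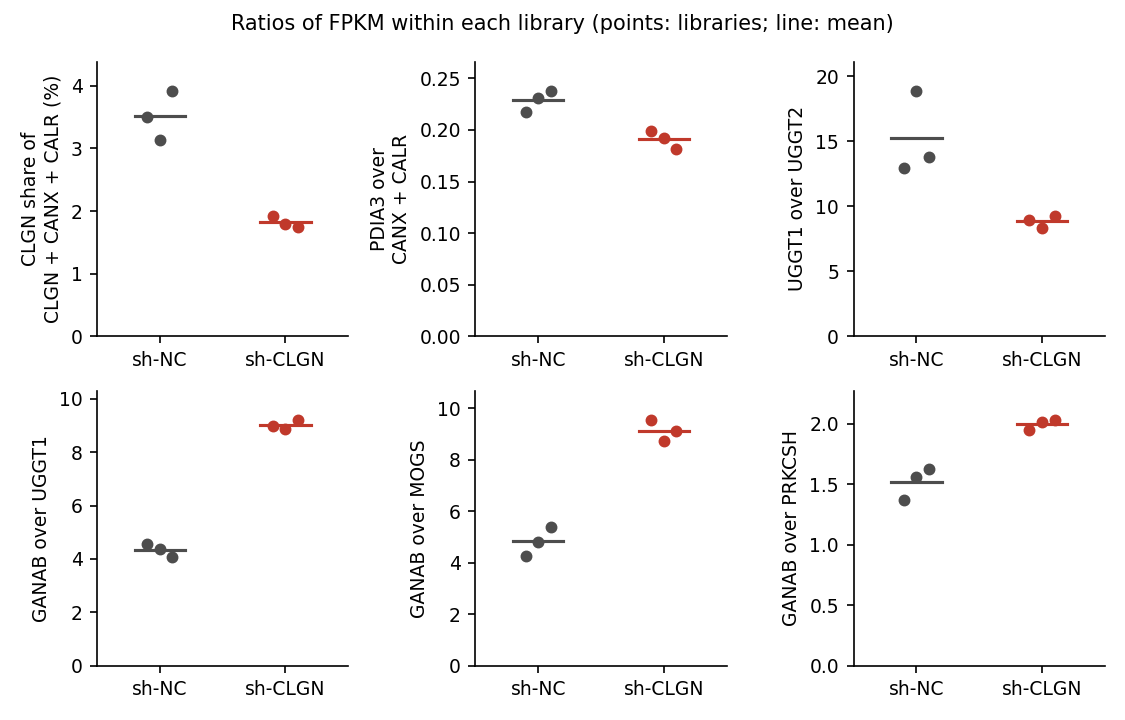
Ratios of FPKM within each of the 6 libraries (axes start at 0, lines are means of 3 libraries). The CLGN share of the lectin chaperones, PDIA3 over CANX plus CALR, and UGGT1 over UGGT2 are lower in all sh-CLGN libraries, and the 3 ratios with GANAB above are higher in all of them.

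The order of the genes by level changed at GANAB, which moved up, and at PDIA3, which moved from above PRKCSH to below it. In sh-NC the order of means was CALR, CANX, PDIA3, GANAB, PRKCSH, UGGT1, MOGS, CLGN and UGGT2, and CANX and PDIA3, UGGT1 and MOGS, and MOGS and CLGN were neighbours whose libraries overlapped. In sh-CLGN the order was CALR, GANAB, CANX, PRKCSH, PDIA3, UGGT1, MOGS, CLGN and UGGT2, and the libraries of PRKCSH and PDIA3 and of UGGT1 and MOGS overlapped. CLGN stood at the 83.4th percentile of tested genes by mean level in sh-NC and at the 63.4th in sh-CLGN. The 5 tested genes whose profile over the 6 libraries lay closest to that of CLGN, by Euclidean distance of log2(FPKM + 1) minus the sh-NC mean, were SLC27A2, YWHAG, FZD6, SINHCAF and PCTP, at distances of 0.154 to 0.223.

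Promoter windows from RefSeq (GRCh38.p14), from 250 bases before to 50 after the start, were found for 7 of the 9 genes. No window was found for PDIA3 or MOGS, so their promoters were not searched. Windows are shown for the 2 members that held the first motif described next, both of which fell, and for the member that rose. The ER stress response element (ERSE), CCAAT followed by any 9 bases and CCACG, is the classical binding motif of ATF6 with NF-Y. It was searched on both strands and occurred in 0.0769% of 35116 promoter windows. Among them were windows of CANX and CALR and of no other of the 7 members searched. CLGN and UGGT1, which fell too, held none of the motifs searched here. In the first 2 sequences the capitals mark the ERSE, on the plus strand for CANX and on the minus strand for CALR. In the GANAB window, which held no ERSE, they mark both copies of CCAAT, a pentamer present in 34.6% of all windows. Windows of CANX, CALR and PRKCSH held that pentamer too.
CANX, chr5:179698679-179698978, plus strand: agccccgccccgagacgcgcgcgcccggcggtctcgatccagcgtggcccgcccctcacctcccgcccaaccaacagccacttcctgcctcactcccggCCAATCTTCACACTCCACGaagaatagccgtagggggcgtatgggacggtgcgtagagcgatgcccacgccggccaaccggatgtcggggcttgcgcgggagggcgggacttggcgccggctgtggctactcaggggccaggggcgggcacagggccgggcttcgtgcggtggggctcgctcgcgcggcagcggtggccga
CALR, chr19:12938359-12938658, plus strand: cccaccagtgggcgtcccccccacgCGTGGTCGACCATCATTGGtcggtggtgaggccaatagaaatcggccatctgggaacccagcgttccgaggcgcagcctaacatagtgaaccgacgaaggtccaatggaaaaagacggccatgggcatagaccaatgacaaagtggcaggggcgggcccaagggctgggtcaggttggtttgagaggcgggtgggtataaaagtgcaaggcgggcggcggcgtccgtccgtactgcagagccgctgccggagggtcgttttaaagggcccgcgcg
GANAB, chr11:62646564-62646863, minus strand: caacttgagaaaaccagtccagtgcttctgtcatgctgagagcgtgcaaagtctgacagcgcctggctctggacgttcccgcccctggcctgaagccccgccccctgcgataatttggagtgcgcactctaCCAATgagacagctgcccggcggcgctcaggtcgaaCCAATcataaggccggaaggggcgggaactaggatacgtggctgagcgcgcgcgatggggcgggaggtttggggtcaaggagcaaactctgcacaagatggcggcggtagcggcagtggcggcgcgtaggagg
CANX had 4 annotated windows, and the ERSE was in 3 of them, which overlap and share the same copy. Further motifs of the unfolded protein response, ERSE-II (ATTGG, any base and CCACG, in 0.0541% of windows) and the XBP1 motif TGACGTGG (0.729%), and the C/EBP-ATF composite TTGCATCA (0.866%), were found in no member's window. These matches are letters in a window and were not tested as binding sites.

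Genes around the cycle were grouped into 5 lists by the step they serve, with earlier results of these data known. Of their 45 genes, 39 were tested. Of these, 23 were lower, 8 higher and 8 did not pass, beside 39.0% lower and 26.7% higher among all tested genes. After quantile normalization 14 were lower and 11 higher, beside 32.5% lower and 30.2% higher among all tested genes. With scaling by read totals 16 were lower and 12 higher, beside 26.2% and 37.9%. Counts and values of single lists below are from the deposited FPKM unless another scaling is named. Counts of single lists were not made under the other scalings.

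The list of genes that assemble and attach the glucose donors also held MANEA. In it, 4 of 6 tested genes were higher and 2 lower, with a median log2 fold change of 0.27. Among all tested genes 26.7% were higher and 39.0% lower. ALG5, the enzyme that makes dolichol-phosphate glucose, was at 4.02, 3.40 and 4.21 FPKM in sh-NC and at 10.9, 12.0 and 10.8 FPKM in sh-CLGN, without overlap (log2 fold change 1.33, SE 0.079, limma adjusted p = 7.16e-06). UGP2, which makes the UDP-glucose used by ALG5 and by the UGGT enzymes, rose by 0.59 on the log2 scale (limma adjusted p = 2.74e-05). The glucosyltransferase ALG10 rose by 0.32 (limma adjusted p = 0.0234), but did not pass after quantile normalization or after the GC trend was removed. ALG6, named after its values were seen, was the fourth, at 0.22 (limma adjusted p = 0.047), but did not pass after quantile normalization (limma adjusted p = 0.143) and turned to -0.02 after the GC trend was removed. ALG8, the next glucosyltransferase of the pathway, fell by 0.51 on the log2 scale (limma adjusted p = 5.37e-05), and MANEA, a Golgi endomannosidase that offers a route around the glucosidases, fell by 0.63 (limma adjusted p = 0.000635).

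Of 12 tested genes for mannose trimming and disposal of misfolded glycoproteins, 7 were lower, 2 higher and 3 did not pass, with a median of -0.32. These counts stand beside 39.0% lower and 26.7% higher among all tested genes. EDEM2, which starts mannose trimming for disposal, was at 37.4, 36.9 and 35.1 FPKM in sh-NC and at 17.6, 17.5 and 18.2 FPKM in sh-CLGN (log2 fold change -0.999, limma adjusted p = 3.01e-06). The mannosidases MAN1B1 and MAN1A1 changed by -0.74 (limma adjusted p = 2.61e-05) and -0.57 (limma adjusted p = 0.000118). The lectin ERLEC1, which recognises trimmed chains, rose by 0.52 (limma adjusted p = 0.000139) while OS9, its counterpart, was lower, at -0.41 (limma adjusted p = 0.000262; OS9 was named after its values were seen). EDEM3 rose by 0.37 (limma adjusted p = 0.00528). The genes that did not pass were SEL1L, SYVN1 and NGLY1, with log2 fold changes of 0.07, -0.03 and -0.06.

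Partners of the chaperones were lower in 5 of 6 tested genes and higher in 0, with a median of -0.28. Among all tested genes 39.0% were lower and 26.7% higher. TMX4, ERP29 and SELENOF, all proteins of the ER thioredoxin or selenoprotein kind, changed by -0.39 (limma adjusted p = 0.000348), -0.37 (limma adjusted p = 0.000663) and -0.31 (limma adjusted p = 0.000733). The testis members of the system, CALR3 and PDILT, which work with CLGN in male germ cells, were not tested. CALR3 had 0 to 6 reads and PDILT 0 to 1 read per library. The next list held lectins that carry glycoproteins out of the ER, with MCFD2 and SURF4, which are not lectins. In it, 3 of 5 tested genes were lower and 1 higher, with a median of -0.27. The shares of all tested genes were again 39.0% lower and 26.7% higher. LMAN2 changed by -0.62 (limma adjusted p = 0.000118), LMAN2L by -0.43 (limma adjusted p = 0.000102) and the cargo receptor SURF4 by -0.27 (limma adjusted p = 0.000872), but SURF4 did not pass with scaling by read totals (-0.08, limma adjusted p = 0.137), after the GC trend was removed (-0.06, limma adjusted p = 0.125) or after quantile normalization, where it turned to 0.06 (limma adjusted p = 0.262). MCFD2, the partner of LMAN1, rose by 0.20 (limma adjusted p = 0.0113), and LMAN1 itself was at 0.03 and did not pass.

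Of 10 tested glycoproteins known to use the cycle, 6 were lower, 1 higher and 3 did not pass, with a median of -0.24. Beside this, 39.0% of all tested genes were lower and 26.7% higher. Transferrin (TF) was at 183, 183 and 177 FPKM in sh-NC and at 58.5, 58.9 and 57.9 FPKM in sh-CLGN (log2 fold change -1.62, SE 0.041, limma adjusted p = 4.15e-07). HLA-C was at -0.91 on the log2 scale (limma adjusted p = 7.82e-05), a value that is uncertain because reads of the near-identical HLA genes can be split in counting. The transferrin receptor (TFRC) rose by 0.22 (limma adjusted p = 0.0143). These are transcript levels, and folding or secretion of the proteins was not measured in these libraries.

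**Figure D4:**
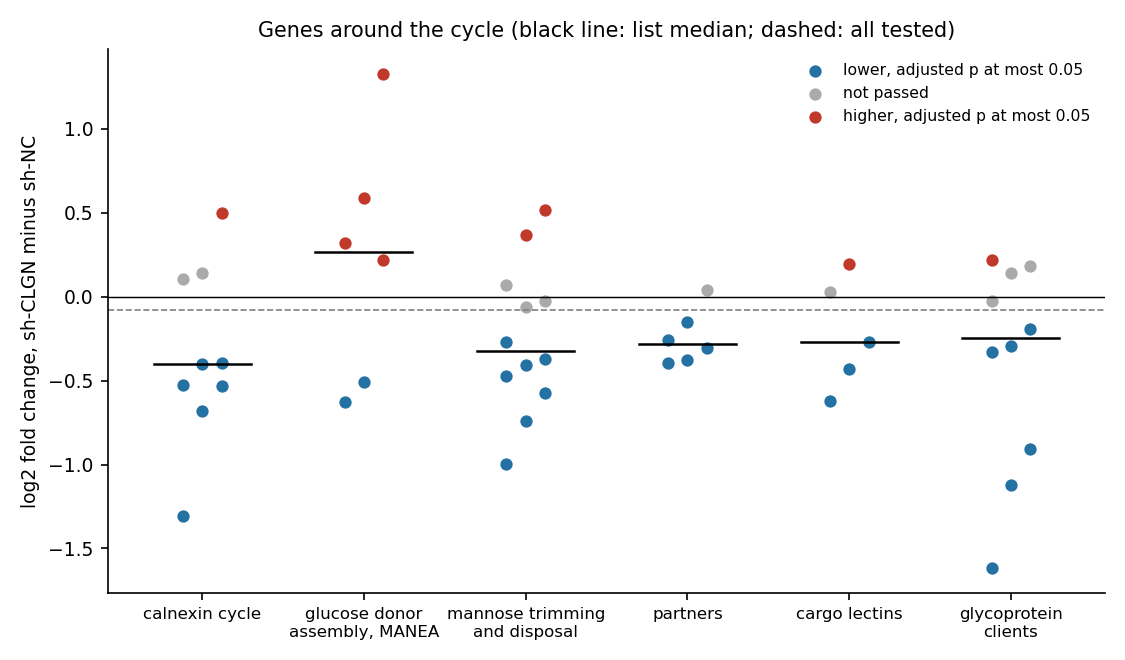
Log2 fold change (sh-CLGN minus sh-NC) of the 9 calnexin cycle genes and of 39 tested genes in 5 lists around the cycle, coloured by the limma test, with list medians in black and the median of all tested genes dashed. The list of glucose donor genes with MANEA has a median of 0.27, and the medians of the calnexin cycle and the other 4 lists lie between -0.40 and -0.24.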

How the data were processed

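RNA was sequenced from 3 sh-NC and 3 sh-CLGN libraries. The authors deposited FPKM values per gene, and the submitters' processing notes name HISAT2 2.0.5, featureCounts and GRCh38. Strandedness of counting is not given in the sources used here, so overlapping genes and near-identical copies are uncertain. Gene positions equalled GENCODE 29. FPKM times gene length gave whole reads for 100% of values (tolerance 0.01 of a read). The library sizes in the deposited values split by group, with 0.933 to 0.953 times the read totals for sh-NC and 1.07 to 1.08 times for sh-CLGN, which lowers sh-CLGN values relative to scaling by read totals.

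Genes with at least 1 FPKM in 3 libraries were compared with limma 3.58.1 (R 4.3.3, eBayes with trend) on log2(FPKM + 1), two-sided. Fold changes on this scale understate changes of low genes. Sequences, ratios and figures used Python 3.11.15, pandas 2.3.3 and matplotlib 3.10.9. The fit was also run on simulated reads with independent libraries, few changed genes and scaling by read totals. These data differ from that setting, so the run gives no error rate for them. Alternatives were the pseudocount, the filter, protein-coding genes, scaling (median-ratio, TPM, read totals, quantile), GC correction, limma without trend, robust eBayes, voom on recovered reads, the replicate block and leaving out each library. The genes named were all members and, per list, the 3 largest falls and rises that passed, with CALR3, PDILT, pseudogenes, overlapping genes and the 5 genes nearest to CLGN. A gene that meets this rule is not reported here. The members and lists were chosen with earlier results of these data known.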

Additional observations from a re-analysis of the deposited data

How the results depend on the processing

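The changes of CLGN, CANX, PDIA3, UGGT1 and GANAB kept their direction and their call under all 19 alternatives. Where only the filter, the gene set, the limma trend, robust eBayes or the replicate block changed, the log2 values were the same. Fold changes could not move in those alternatives. Median-ratio scaling left them nearly unchanged as well (CLGN at -1.305). Sizes moved, to differing extents, under the remaining alternatives. CLGN ranged from -1.44 (GC trend removed) to -1.12 (quantile normalization), and from -1.39 to -1.24 without single libraries. After quantile normalization CANX moved from -0.53 to -0.21, UGGT1 from -0.53 to -0.27, PDIA3 from -0.68 to -0.37 and GANAB from 0.50 to 0.80, and with read totals CANX stood at -0.33 and UGGT1 at -0.35. The count of members that passed as higher was 2, against 1, with TPM scaling, after quantile normalization and after the GC trend was removed, and was 3 with scaling by read totals, where UGGT2 and PRKCSH joined GANAB. Lower members numbered 4 to 6 over the alternatives. The count of 4 came after quantile normalization, where 32.5% of all tested genes were lower. The count of higher members ranged from 1 to 2 without single libraries. UGGT2 turned to -0.0537 after the GC trend was removed, the list counts were 14 lower and 11 higher after quantile normalization and 16 lower and 12 higher with read totals, and the summed chaperone ratio was 0.799 in TPM. TPM scaling moved the median of all tested genes by 0.109 and read totals by 0.160, and relative to that median CLGN stood at -1.23 in the deposited FPKM, -1.28 in TPM and -1.21 with read totals. The share of higher genes among all calls was 40.7%, against 52.2%, 59.2%, 48.2% and 48.9% with TPM, read totals, quantile normalization and GC correction. The causes were not tested. Same-numbered replicates did not deviate together (correlations -0.018, -0.046 and -0.146), and the replicate block left 6 members lower and 1 higher, with 22 list genes lower and 8 higher. The low read count of UGGT2 limits what can be said of it.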
